A study of Mus musculus with 6 samples.

Results

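Megakaryocytes are the marrow cells that shed platelets, and 10 genes best known from these cells were followed here: Vwf, F2r, Gp1ba, Gp1bb, Gp9, Selp, Treml1, Rab27b, Plek and Thbs1. They were taken by symbol from a table of 47593 genes, and all 10 were found in it. The cells were mouse femur bone marrow cells enriched for c-Kit, the receptor for stem cell factor. Both groups carried the retroviral construct MSCVneo-MLL-AF9, whose product is a leukaemia fusion protein, were selected with G418 and were passaged in methylcellulose with cytokines. As labelled, the groups differed in the fusion: WT is the unchanged AF9 part, and E531R carries that substitution, which the series title links to a loss of binding between AF9 and the corepressor BCOR. There were 3 total RNA libraries per group, 6 in all, and no group of untransduced cells or of megakaryocytes. Nothing in the labels states that the replicates came from different cultures or mice. The p-values therefore cover only the spread between these libraries, which may be technical.

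In the body, von Willebrand factor (gene Vwf) is a large adhesive protein that tethers platelets to damaged vessel walls. Its platelet receptor is the glycoprotein Ib-IX-V complex, built from the products of Gp1ba, Gp1bb, Gp9 and Gp5. Platelets are then activated through thrombin receptors, among which the product of F2r is known from human platelets. They signal through kinase substrates such as pleckstrin (Plek), and release granules loaded with Vwf, thrombospondin (Thbs1) and P-selectin (Selp). Several of these genes are not limited to megakaryocytes: Vwf and Selp are also made by endothelium, and Plek and Thbs1 by monocytes and other myeloid cells.

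Promoter windows from RefSeq (build GRCm38.p6) could be matched for 7 of the 10 genes: Gp1ba, Gp1bb, Gp9, F2r, Selp, Plek and Treml1. The 250 bases before each start were searched on both strands for 4 motifs of blood cell factors. The motif of GATA factors was spelled AGATAA, and a second spelling with T as its first base was also accepted. The motif of ETS factors was spelled AGGAAG, that of RUNX factors TGTGGT, and the core shared by AP-1 and NF-E2 was spelled TGANTCA. No match printed here overlaps another. Over the 32851 mouse promoter windows of that length, GATA letters were in 16.6%, ETS letters in 29.5%, RUNX letters in 14.0% and the AP-1 and NF-E2 core in 6.75%. The windows with a match are printed because GATA and ETS factors are the textbook regulators of platelet glycoprotein genes, with the matches in capitals, 5′ to 3′ on the gene's strand. Gp1ba is on the plus strand at chr11:70638872-70639121, Gp9 on the plus strand at chr6:87777820-87778069, Selp on the plus strand at chr1:164115014-164115263 and F2r on the minus strand at chr13:95618488-95618716.
Gp1ba: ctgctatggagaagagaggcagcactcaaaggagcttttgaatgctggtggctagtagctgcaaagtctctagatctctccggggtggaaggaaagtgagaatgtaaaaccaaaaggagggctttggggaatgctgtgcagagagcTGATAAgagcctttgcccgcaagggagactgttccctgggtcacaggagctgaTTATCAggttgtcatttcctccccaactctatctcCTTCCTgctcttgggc
Gp9: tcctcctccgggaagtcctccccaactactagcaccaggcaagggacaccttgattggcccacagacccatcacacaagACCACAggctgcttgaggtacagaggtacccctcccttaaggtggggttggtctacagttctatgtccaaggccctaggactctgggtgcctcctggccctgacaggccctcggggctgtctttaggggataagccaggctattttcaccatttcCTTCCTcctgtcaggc
Selp: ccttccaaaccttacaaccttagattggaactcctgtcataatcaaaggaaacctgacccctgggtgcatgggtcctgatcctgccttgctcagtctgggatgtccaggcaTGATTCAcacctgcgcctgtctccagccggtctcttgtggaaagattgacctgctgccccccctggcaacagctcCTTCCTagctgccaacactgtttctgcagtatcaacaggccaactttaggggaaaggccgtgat
F2r: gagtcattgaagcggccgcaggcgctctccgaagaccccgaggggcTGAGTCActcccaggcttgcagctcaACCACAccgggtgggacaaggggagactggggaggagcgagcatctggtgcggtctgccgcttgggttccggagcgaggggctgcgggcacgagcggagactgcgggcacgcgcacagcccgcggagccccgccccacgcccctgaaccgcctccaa
The Gp1ba window held 2 GATA matches, at -104 and at -51 on opposite strands, with an ETS match at -16. Gp9 had an ETS match at the same distance of -16 and a RUNX match at -171. Selp had an ETS match at -64 and an AP-1 and NF-E2 match at -139, while F2r had a RUNX match at -178 and an AP-1 and NF-E2 match at -204. The F2r window is shortened to 229 bases because the remaining 21 are annotated as untranslated. None of the 4 motifs was found in the windows of Plek and Treml1, and that of Gp1bb lies wholly in an untranslated exon of its neighbour Sept5 and was not searched. A match describes letters only and is not a binding site.

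In E531R cells 5 of the 10 genes were higher, 1 was lower, 1 did not pass the test and 3 were too low to be tested. The genes that rose were Plek, Vwf, F2r, Gp1bb and Selp, between 4.14-fold for Vwf and 8.62-fold for Gp1bb, and Thbs1 fell 1.48-fold. Values are normalised read counts, which are read counts divided by a size factor for each library. The test was limma on log2(value + 1) with adjustment over all 12991 genes whose mean over the 6 libraries was at least 10, and a gene passed at an adjusted p under 0.05. Over all tested genes, 10.4% were called higher and 9.53% lower. The median log2 fold change was 2.14 over the 7 tested genes and 0.01 over all tested genes. Gp1bb and Selp reached the minimum mean only through their E531R libraries, so neither the count nor this median is support for a shift of the set. The 10 genes were chosen with results of these data known.

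**Figure D1:**
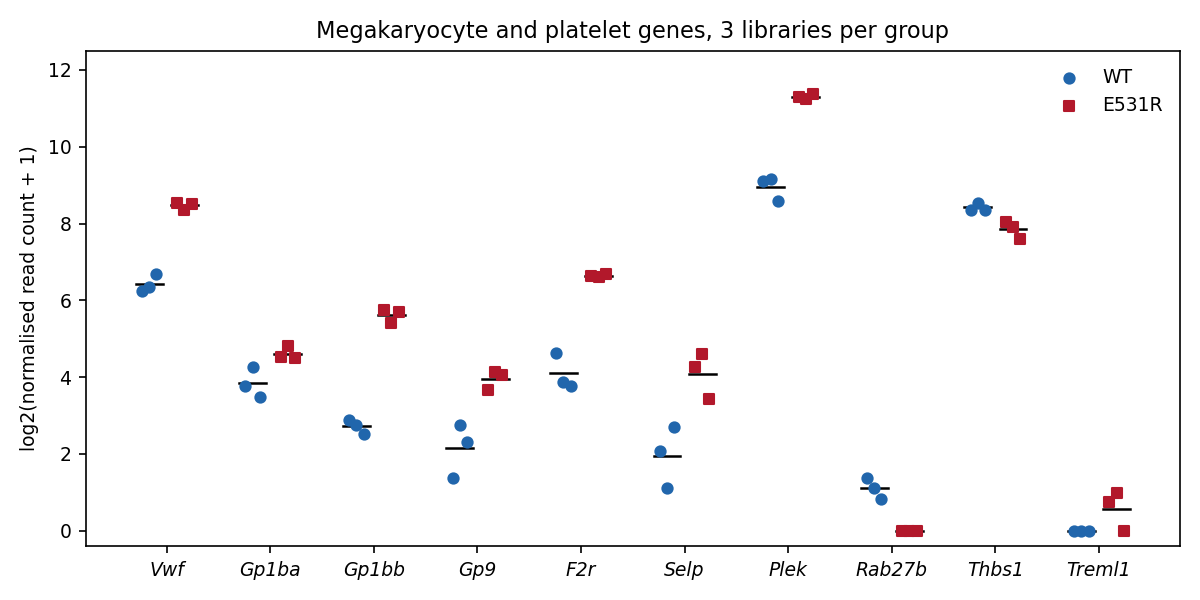
The y axis is log2(normalised read count + 1) for the 10 genes on the x axis, as 1 point for each library (WT as blue circles, E531R as red squares) with a bar at the mean of the 3 log2 values. For Vwf, Gp1ba, Gp1bb, Gp9, F2r, Selp and Plek the E531R points all lie above the WT points, and for Rab27b and Thbs1 they all lie below.

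Libraries held 14161139 to 33459668 reads assigned to genes. Among the WT libraries replicate 3 differed most from the rest: when it was left out, limma called 24.3% of genes higher and 23.1% lower. Markers of cultured myeloid progenitors were abundant in every library: the primary granule enzyme gene Mpo had 93563 ± 7296 in WT against 137253 ± 1862 in E531R (SD, n = 3 each), and Kit ran from 3520 to 3702 in the WT libraries and from 3332 to 3340 in the E531R libraries. Of 8 such progenitor markers, all tested, 3 were called higher and 1 lower, and without WT replicate 3 the counts were 4 and 4. The lower gene was Ctsg, another primary granule enzyme gene, with means of 68375 in WT and 37852 in E531R (limma adjusted p = 0.00384). The haemoglobin genes Hba-a1, Hba-a2 and Hbb-bs were at 0 reads in all 6 libraries.

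The ligand Vwf, on chromosome 6 (125546774 to 125686679, GRCm38), had normalised read counts of 75.0, 80.4 and 102 in WT replicates 1, 2 and 3 and of 372, 329 and 365 in the E531R replicates. The groups did not overlap, and the lowest E531R library was more than 3 times as high as the highest WT library. Vwf rose 4.14-fold in the mean, with a fitted log2 change of 2.05 (SE 0.142; limma adjusted p = 0.000111), and it passed in all 17 alternative analyses, with log2 fold changes between 1.94 and 2.21. No annotated gene overlaps the Vwf locus.

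The receptor subunits did not all pass. Gp1ba, the subunit that binds von Willebrand factor, lies on chromosome 11 (70639122 to 70642036). It had 12.8, 18.4 and 10.2 in WT and 22.2, 27.2 and 21.4 in E531R. All E531R libraries were above all WT libraries, a pattern seen toward higher values in 21.2% of tested genes. The 1.71-fold difference did not pass (log2 fold change 0.77, SE 0.269; limma adjusted p = 0.0967). Its log2 fold change stayed between 0.51 and 0.98 in the 16 alternatives, and it passed in 1 of them, with weights per library (limma adjusted p = 0.0142).

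Gp9, the small glycoprotein IX subunit, lies on chromosome 6 (87778072 to 87779768) and had a mean just below the minimum for testing. Its counts were 1.60, 5.74 and 3.94 in WT and 11.8, 16.5 and 15.6 in E531R, or 1, 5 and 5 reads against 17, 17 and 16. The groups did not overlap. Tested with no minimum mean, Gp9 had a log2 fold change of 1.81 (limma adjusted p = 0.0309; edgeR 1.85 with an adjusted p of 0.0137), where 5.88% of genes were called higher by limma and 5.96% by edgeR. In the authors' deposited table its log2 fold change was 1.04 toward E531R, with an adjusted p of 0.039. The deposited log2 fold changes of Selp and Gp1bb, 1.19 and 2.25, were also smaller than the limma values of 2.14 and 2.90. The size for Gp9 is therefore not compared between the methods.

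Gp1bb, the beta chain that is disulphide-linked to the product of Gp1ba, lies on chromosome 16 (18620317 to 18622403, minus strand). It had 6.39, 5.74 and 4.72 in WT and 52.8, 41.8 and 50.6 in E531R, from 15 reads in WT and 171 in E531R. The 3 WT values lay close together and far below the E531R values. Gp1bb rose 8.62-fold in the mean, with a fitted log2 change of 2.90 (SE 0.222; limma adjusted p = 0.00017), and passed in all 16 alternatives. Its log2 fold change ran from 1.90, with a pseudocount of 10, to 3.16, with DESeq2. The value cannot be assigned to Gp1bb alone, because its exons lie inside the annotated transcripts of another gene that moved the same way.

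That gene is Sept5, which encodes a septin, a filament-forming GTPase, and is read on the same strand just ahead of Gp1bb. Of the 2087 exon bases of Gp1bb, 1902 (91.1%) are also annotated as Sept5 exons and 867 (41.5%) as exons of the gene model Gm49601. Sept5 had 350, 366 and 506 in WT and 2542, 2509 and 2531 in E531R, with no overlap of the groups. It rose 6.20-fold (2.65 on the log2 scale with an SE of 0.142; limma adjusted p = 3.78e-05). The Gp1bb count was 1.83%, 1.57% and 0.933% of the Sept5 count in the WT libraries and 2.08%, 1.67% and 2.00% in the E531R libraries, so these shares overlapped between groups. Strand does not separate the pair, and the sources used here do not say which of the shared reads were counted for either gene. Sept5 was singled out after its values were seen.

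**Figure D2:**
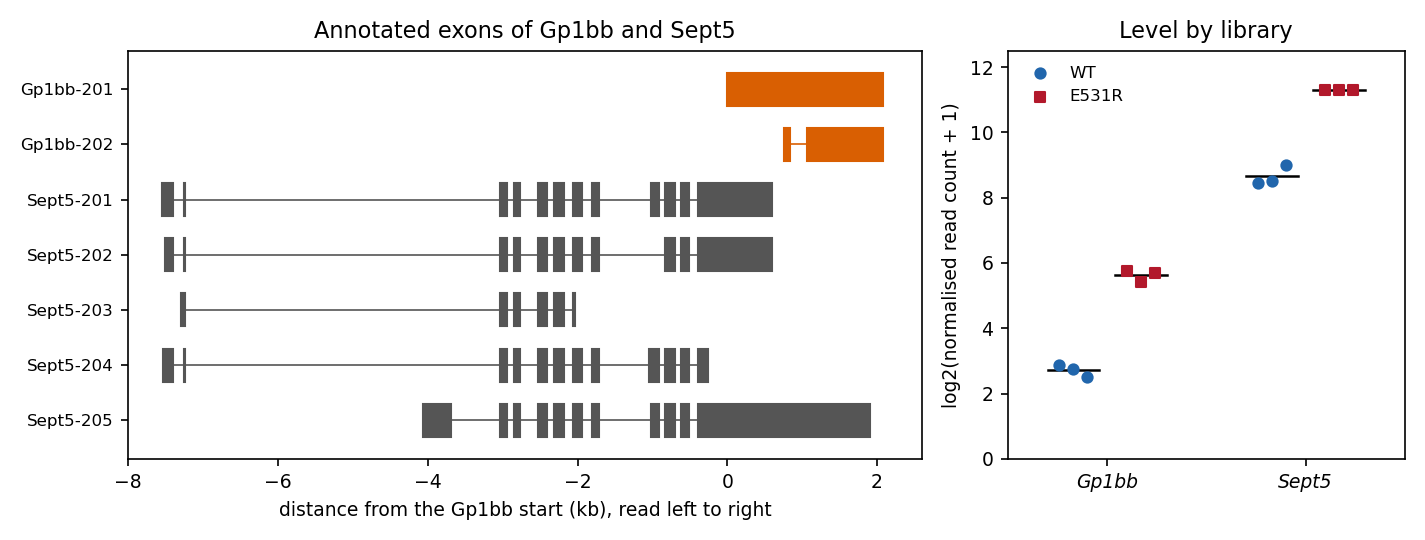
The left panel maps the annotated exons (boxes) of 2 Gp1bb and 5 Sept5 transcripts by distance in kb from the Gp1bb start on the x axis, and the right panel gives log2(normalised read count + 1) by library (WT as blue circles, E531R as red squares, bar at the mean of the 3 log2 values). The last exon of transcript Sept5-205 runs over most of Gp1bb, and both genes were higher in all 3 E531R libraries.

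Gp5, the remaining subunit of the complex, had 4 reads in all WT libraries together and 3 in all E531R libraries together. The receptor genes therefore ran from near the detection limit for Gp5 to a mean of 48.4 for Gp1bb in E531R, a value that cannot be assigned to Gp1bb alone.

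F2r, the protease-activated receptor that thrombin cleaves, lies on chromosome 13 (95601803 to 95618487, minus strand). Its counts were 23.9, 13.8 and 12.6 in WT and 98.0, 97.3 and 102 in E531R. The E531R libraries were nearly level, and WT replicate 1 was the highest of the WT libraries. F2r rose 5.91-fold in the mean, with a fitted log2 change of 2.55 (SE 0.253; limma adjusted p = 0.000545), and passed in all 17 alternatives with log2 fold changes between 2.05 and 2.82.

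The other protease-activated receptor genes went different ways. F2rl3, which encodes the receptor PAR4, fell from 343 ± 37.5 to 227.5 ± 20.3 (SD, n = 3 each), a log2 change of -0.59 (limma adjusted p = 0.0145). It no longer passed without WT replicate 1 or without E531R replicate 2 or 3, where the limma adjusted p reached 0.0693. F2rl2, for the cofactor receptor PAR3, had 373 ± 53.6 in WT and 493 ± 13.2 in E531R and passed narrowly (limma adjusted p = 0.0478), a call kept in 7 of 16 alternatives, with an adjusted p of up to 0.166. It was lost without WT replicate 1 or 2 and without E531R replicate 1, 2 or 3. F2rl1, for PAR2, had 0 reads in all 6 libraries. Per kb of exon, F2rl2 at 197 and F2rl3 at 114 in E531R stood above F2r at 29.7.

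Selp encodes P-selectin, the granule protein that moves to the platelet surface and binds leukocytes, and lies on chromosome 1 (164115264 to 164150026). It had 3.19, 1.15 and 5.51 in WT and 18.1, 23.4 and 9.73 in E531R, or 10 reads in all against 60. The groups did not overlap, although E531R replicate 3 lay nearer to WT than the other E531R libraries did. Selp rose 5.19-fold in the mean, with a fitted log2 change of 2.14 (SE 0.516; limma adjusted p = 0.0281). The call was lost with the replicate number as a block (limma adjusted p = 0.064), without WT replicate 1 or 2 (0.0681 and 0.0549) and without E531R replicate 1 or 2 (0.115 and 0.122). Antisense transcripts of Gm16587 and Gm16548 cover 4.21% and 9.93% of its exon bases, and the strand setting is not given.

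Sele, the endothelial E-selectin, was under the minimum mean with 17 reads in WT and 30 in E531R. Selplg, the ligand that P-selectin binds on leukocytes, was abundant at 4926 ± 662 in WT against 5004 ± 342 in E531R (SD, n = 3 each) and did not pass (log2 fold change 0.03, limma adjusted p = 0.875), though it passed without WT replicate 3 (0.0395).

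Plek encodes pleckstrin, the main protein kinase C substrate of platelets, and lies on chromosome 11 (16971206 to 17052381, minus strand). Its counts were 548, 568 and 385 in WT and 2534, 2409 and 2660 in E531R. WT replicate 3 was the lowest library, and the groups were far apart with or without it. Plek rose 5.07-fold in the mean, with a fitted log2 change of 2.36 (SE 0.153; limma adjusted p = 8.3e-05), and passed in all 17 alternatives with log2 fold changes between 2.18 and 2.46. Its relative Plek2 had 2 reads in WT and 1 in E531R. Exons of Cnrip1 on the opposite strand cover 4.44% of its exon bases.

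Thbs1 encodes thrombospondin, an adhesive granule protein also secreted by monocytes, and lies on chromosome 2 (118111876 to 118127133). It had 329, 371 and 328 in WT and 261, 239 and 194 in E531R. Each E531R library lay below each WT library, as in 22.8% of tested genes. Thbs1 fell 1.48-fold in the mean, with a fitted log2 change of -0.57 (SE 0.132; limma adjusted p = 0.0234). The call was lost without WT replicate 1 or 2 (limma adjusted p = 0.06 and 0.0707) and without E531R replicate 2 or 3 (0.0748 and 0.0674).

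Its receptor genes behaved otherwise: Cd36, a scavenger receptor of platelets and macrophages, had 1.60, 1.15 and 1.57 in WT and 75.1, 52.6 and 99.3 in E531R, from 4 against 264 reads. Cd36 rose 52.5-fold (log2 fold change 4.93, SE 0.301; limma adjusted p = 6.48e-05). The WT level rests on so few reads that the size of this rise is uncertain: the log2 fold change ran from 2.87 to 5.72 over the 15 alternatives, in all of which Cd36 passed. The other receptor gene, Cd47, did not pass, at 14732 ± 391 and 16732 ± 462 (SD, n = 3 each; limma adjusted p = 0.103), but passed without WT replicate 3 (0.000233).

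The last members were at the detection limit. Treml1, a receptor stored in platelet granules, had 0 reads over the WT libraries, which allows up to 3, and 1, 1 and 0 reads in the E531R libraries. Rab27b, a small GTPase for dense granule secretion, had 1 read in each WT library and 0 in the E531R libraries, which allows up to 3. No fold is given for either, since both groups were at or under 3 reads. The paralogue Rab27a, which works in granule release of many blood cells, was abundant and did not pass, at 5844 ± 164 and 6149 ± 87.1 (SD, n = 3 each; limma adjusted p = 0.448, log2 change 0.07), but passed without WT replicate 3 (0.0321).

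The myeloid relatives of Treml1 in the list were higher in E531R in all 5 genes tested. Trem2, a lipid-sensing receptor of macrophages, rose from 19.8 ± 6.29 to 252 ± 26.8 (SD, n = 3 each; limma adjusted p = 0.000112, log2 change 3.65). Treml4 rose from 5.76 ± 1.01 to 37.9 ± 9.34 and reached the minimum mean only through its E531R libraries, so the count of 5 is no support for a shift of the family. The same limit holds, among the other listed genes, for Cd36, Pf4, Gfi1b, Cx3cr1 and Mmp9. Treml2, Trem3 and Trem1 rose by 0.82, 0.745 and 0.69 on the log2 scale (limma adjusted p = 0.000187, 0.00445 and 0.00696).

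**Figure D3:**
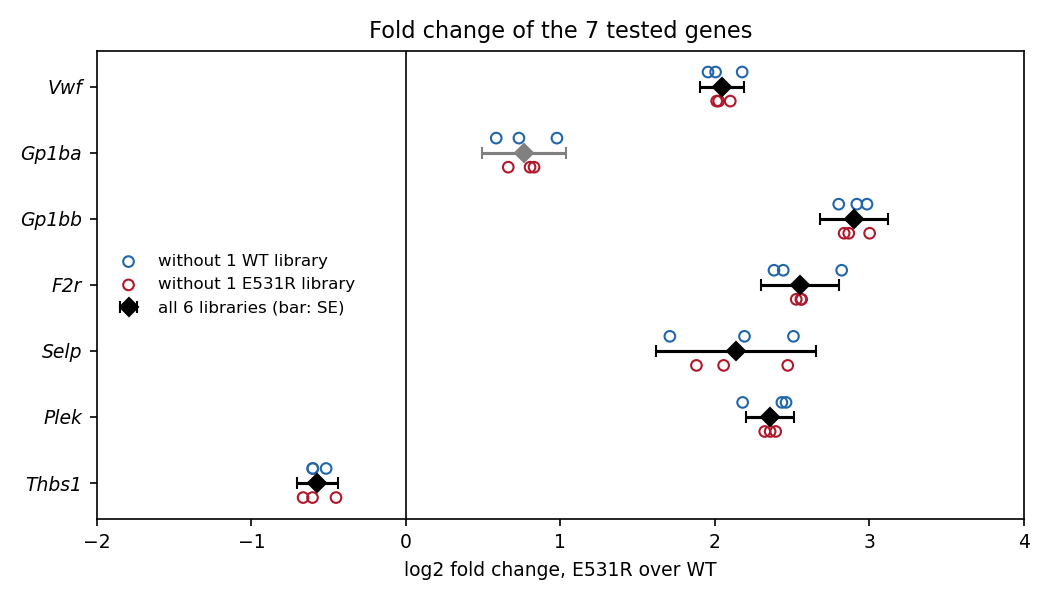
The x axis is the log2 fold change of E531R over WT for the 7 tested genes, with a diamond and SE bar for all 6 libraries (black where the gene passed, grey where it did not) and open circles for the fits without 1 WT library (blue) or 1 E531R library (red). Vwf, Gp1bb, F2r, Selp and Plek lie at 2.05 to 2.90, Gp1ba at 0.77 and Thbs1 at -0.57, and Selp moves most when a library is left out.

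Compared per kb of exon, Plek was the most abundant of the 10 genes in both groups, at 112 ± 22.4 in WT and a mean of 565 in E531R, between 537 and 593. Thbs1 came next, at 56.4 ± 4.02 and 38.1 ± 5.63. In WT, Vwf, Gp1ba, F2r and Gp9 had 5.35, 5.07, 5.03 and 4.27 per kb, each overlapping its neighbour in this order, as Gp9 did with Gp1bb at 2.69. In E531R the order was F2r at 29.7, Gp1bb at 23.2, Vwf at 22.1, Gp9 at 16.6 and Gp1ba at 8.70, where only Gp1bb and Vwf overlapped. The place of Gp1bb in either order is uncertain, because 91.1% of its exon bases are shared with Sept5. Selp followed at 0.744 in WT and 3.86 in E531R. Exon length here is the union over all annotated transcripts of a gene, 16064 bases for Vwf, and overlap reflects the spread between libraries only. A gene whose expressed transcript is shorter than this union is placed too low, so the order of genes at similar levels is uncertain.

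**Figure D4:**
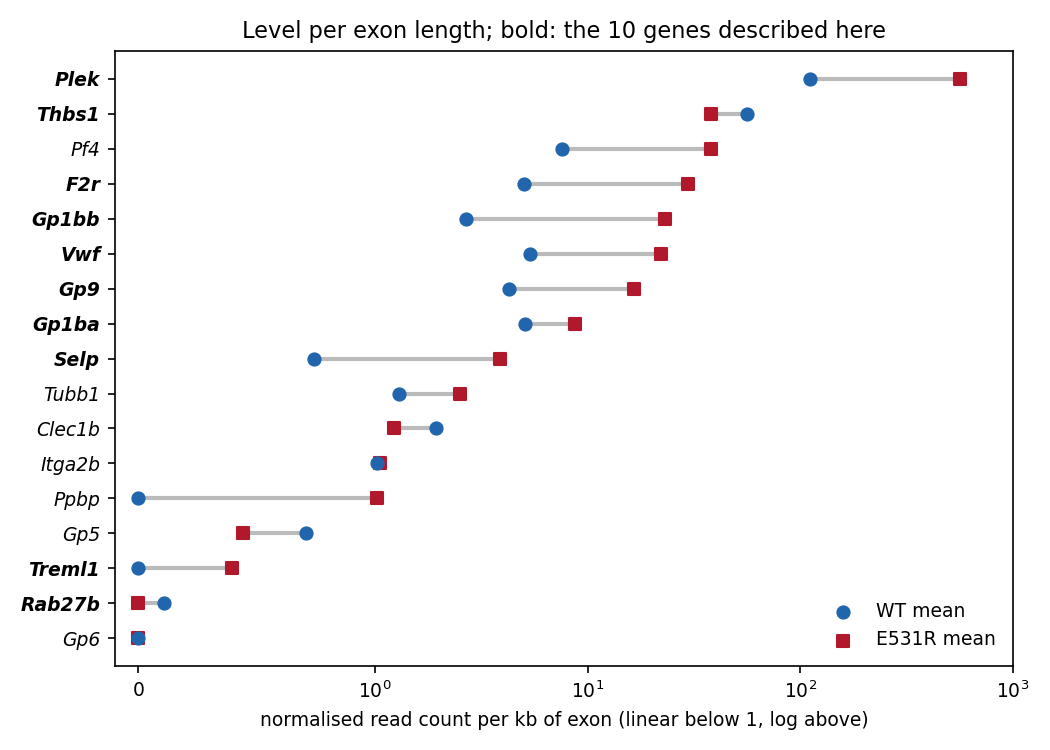
The x axis is the mean normalised read count per kb of exon over 3 libraries (linear below 1, log above) in WT (blue circles) and E531R (red squares) for the 10 genes (bold) and other defining markers of megakaryocytes. Plek stands at the top in both groups, followed in WT by Thbs1 and in E531R by Pf4 and Thbs1 at 38.2 and 38.1 per kb, and Gp6, Gp5, Itga2b and Clec1b stay under 2 per kb in both groups.

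Most defining megakaryocyte markers were scarce. Of 10 such markers, 2 had a mean of at least 10: Gp1ba, and Pf4, the platelet chemokine, which rose from 5.48 ± 2.84 to 27.6 ± 7.05 (SD, n = 3 each), a 5.03-fold rise (limma adjusted p = 0.00753). Gp6, the collagen receptor gene, had 0 reads in all libraries. Itga2b, the fibrinogen receptor subunit that marks the lineage, had 5.59 ± 2.16 and 5.79 ± 1.60, and tested with no minimum mean it did not pass (limma adjusted p = 0.939). The summed count of the 10 markers was 32.3 to 52.8 in the WT libraries and 70.9 to 101 in the E531R libraries. The higher sum came mainly from Pf4, Gp9 (means of 3.76 in WT and 14.6 in E531R) and Gp1ba (13.8 and 23.6). Gp9 and Gp1ba are among the genes followed here, and Pf4 reached the minimum mean only through its E531R libraries. Clec1b (9.94 and 6.26) and Gp5 (1.56 and 0.973) were lower in the mean. The sum is therefore no support for a rise of the markers as a set. In bulk RNA, more cells of a type and more RNA per cell cannot be told apart.

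Of 20 other megakaryocyte and platelet surface genes in the table, 10 were tested, of which 6 rose and 1 fell (median log2 fold change 0.40). Over all tested genes the shares to set beside this and the following lists were 10.4% higher and 9.53% lower. Without WT replicate 3 they were 24.3% and 23.1%. Cd9, a tetraspanin, rose from 569 ± 74.2 to 1671 ± 68.6, and Itgb3, the integrin chain that pairs with the product of Itga2b, from 330 ± 30.8 to 588 ± 26.1 (SD, n = 3 each; limma adjusted p = 9.61e-05 and 0.00111). P2rx1, an ATP-gated channel of platelets, rose from 599 ± 72.6 to 1038 ± 40.6 (limma adjusted p = 0.00175). The gene that fell was F2rl3, and without WT replicate 3 the counts were 6 higher and 3 lower. With no minimum mean they were 4 higher and 2 lower. Pear1, under the minimum mean with 43 reads in WT and 10 in E531R, then also fell (log2 fold change -2.14, limma adjusted p = 0.0179).

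Of 17 tested genes for other granule cargo or granule formation, 6 rose and 1 fell (median log2 fold change 0.06). F13a1, the clotting factor XIII subunit found in platelets and macrophages, rose from 289 ± 41.3 to 1198 ± 50.9, and F5, clotting factor V, from 409 ± 37.5 to 901 ± 57.0 (SD, n = 3 each; limma adjusted p = 4.71e-05 and 0.000289). Clu, the chaperone clusterin, rose from 558 ± 69.4 to 1243 ± 87.0, while Serpine2, a thrombin inhibitor, fell from 172 ± 13.4 to 61.5 ± 5.13 (limma adjusted p = 0.000437 and 0.000284). Cargo genes went in both directions, and 10 of the 17 did not pass. Without WT replicate 3, 9 were higher and 3 lower.

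Of 10 tested genes of the secretion machinery, 1 rose and 0 fell (median 0.21): Stx11, a syntaxin of granule fusion, from 247 ± 15.4 to 366 ± 21.9 (SD, n = 3 each; limma adjusted p = 0.00597). Without WT replicate 3, 7 were higher and 1 lower. Of 16 platelet signalling genes 5 rose and 0 fell (median 0.19), with Prkcb, a protein kinase C whose family phosphorylates pleckstrin, going from 1005 ± 62.9 to 1562 ± 6.94 (limma adjusted p = 0.001). The count of higher signalling genes was 3, 2 and 11 without WT replicate 1, 2 or 3, and 1, 2 and 2 without E531R replicate 1, 2 or 3.

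Platelet cytoskeleton genes rose in 5 of 8 tested and fell in 0 (median log2 fold change 0.52), and without WT replicate 3 all 8 were higher. That fit called 24.3% of all tested genes higher. Actn1, an actin crosslinker, rose from 3210 ± 306 to 5470 ± 79.9, and Myh9, the non-muscle myosin heavy chain, from 24968 ± 1585 to 36945 ± 580 (SD, n = 3 each; limma adjusted p = 0.000799 and 0.00241). The platelet-restricted tubulin gene Tubb1 was under the minimum mean.

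Of 12 tested transcription factors of the lineage, 5 rose and 1 fell (median log2 fold change 0.11). Gfi1b, a repressor needed for megakaryocytes and red cells, rose from 3.28 ± 2.18 to 21.7 ± 2.00, and Tal1 from 66.0 ± 10.6 to 158 ± 15.7 (SD, n = 3 each; limma adjusted p = 0.00679 and 0.00176). Runx1 rose from 1413 ± 40.1 to 2049 ± 10.4, and Gata2 fell from 83.1 ± 22.2 to 32.8 ± 6.19 (limma adjusted p = 0.00107 and 0.0119). Without E531R replicate 1, 2 or 3 the number of higher factors was 3, and the Gata2 call was lost without E531R replicate 1 or 2 (limma adjusted p of up to 0.0579). Gata1, the main factor of the lineage, had 4 reads in WT and 1 in E531R, while Fli1 and Nfe2 were abundant and did not pass (limma adjusted p = 0.17 and 0.691). Both passed without WT replicate 3 (limma adjusted p = 0.0201 and 0.000472).

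**Figure D5:**
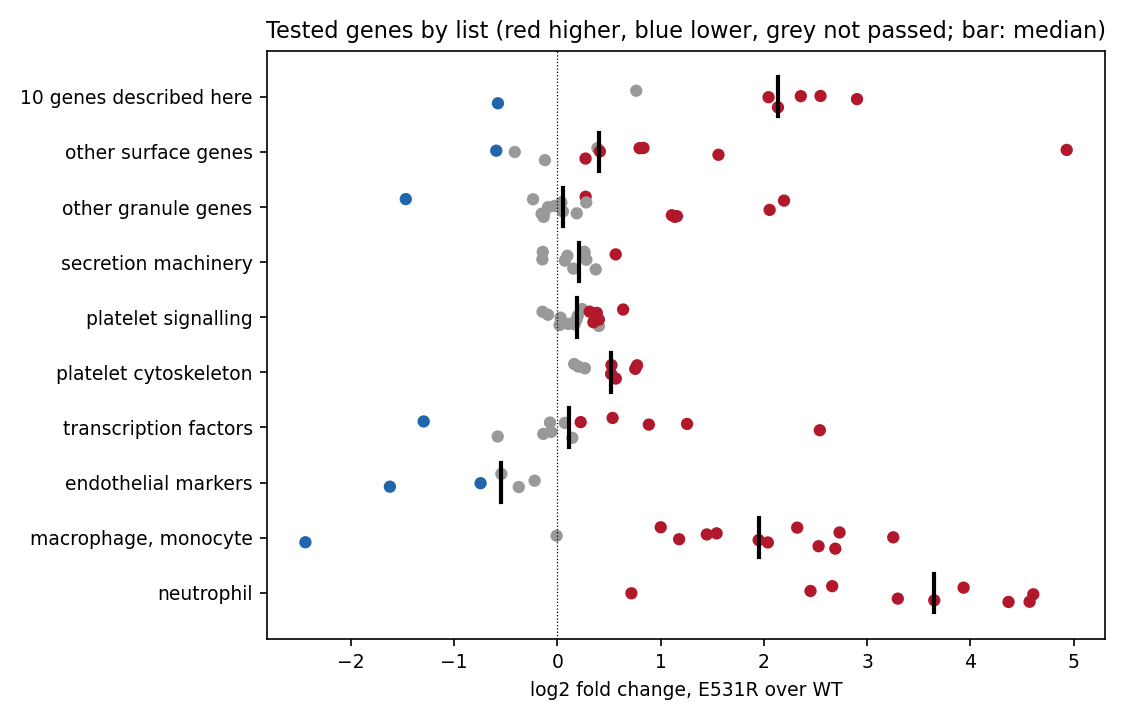
The x axis is the log2 fold change (E531R over WT) of the tested genes of 10 lists, 1 list per row; red points were higher, blue points lower and grey points did not pass, with a black bar at each list's median. The medians for macrophage and neutrophil markers lie at 1.95 and 3.65, and that of the endothelial markers at -0.54.

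Markers of other cells that can express these genes were also compared. Macrophage and monocyte markers were higher in 11 of 13 tested genes and lower in 1, with a summed count of 30778 to 36349 in WT and 43655 to 47430 in E531R. The lower gene was the monocyte marker Ccr2, which fell from a mean of 4448 to 788 (limma adjusted p = 0.000553). Ly6c2, the largest part of the sums at means of 22715 in WT and 22415 in E531R, did not pass (limma adjusted p = 0.979). It passed without WT replicate 3 (0.0215). Neutrophil markers were higher in 9 of 9, with sums of 6446 to 8718 and 67859 to 75397. The part of these cells in the rise of Plek, F2r and the other genes was not tested. Of 15 endothelial markers 5 could be tested, of which 0 rose and 2 fell, Erg and Plvap. Plvap, with means of 26.2 in WT and 7.74 in E531R, reached the minimum mean only through its WT libraries. Counts of lower endothelial markers are therefore no support for a fall of the set. The summed count of the 15 was 3059 to 3376 in WT and 2156 to 2273 in E531R. It came mainly from Erg, Flt1 and Egfl7, with WT means of 1817, 893 and 375. Cdh5, Kdr and Tek had only 3, 1 and 1 reads in WT and 1, 3 and 0 in E531R. The endothelial genes Emcn, Robo4, Sox17 and Sox18 had 0 reads in all 6 libraries, and without WT replicate 3 all 5 tested markers were lower.

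Of 3 tested stroma markers 0 rose and 1 fell, as for the 3 of mast cells and basophils, and the single erythroid marker tested did not pass. The 5 genes with a mean of at least 100 whose values over the 6 libraries were most like the average profile of the tested members were Ikzf1, Rspry1, P2rx3, Itpripl2 and Pik3c2b, with Pearson correlations of 0.9960 to 0.9978. The 6 points fall into 2 groups, so such correlations mostly express that the groups differed, and not by how much. Ikzf1 did not pass, with means of 6900 in WT and 7128 in E531R (log2 fold change 0.05, limma adjusted p = 0.612).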

How the data were processed

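RNA from 3 WT and 3 E531R libraries was analysed, with groups taken from the sample titles. The submitters' processing notes list cutadapt, FastQC, SAMtools, HISAT2, DESeq2 and featureCounts with build GRCm38; the sources used here give no versions, annotation or strand setting. The authors deposited a table of signal values, which are gene read counts divided by 1 size factor per library. 100% of values were whole multiples of a library's smallest value within 0.001 reads, so whole reads were recovered. This scaling hides a shift shared by all genes. The authors' log2 fold change is also deposited (turned here to E531R over WT), with its standard error and Wald statistic (score columns) and p-value columns.

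The main test was limma 3.58.1 (R 4.3.3) on log2(value + 1) with its trend option, two-sided, adjusted by Benjamini-Hochberg over genes at or above a mean of 10. These fold changes understate changes of low genes. On the recovered reads edgeR 4.0.16 called 1393 genes higher and 1251 lower, and DESeq2 1.42.0 was also run. The test was checked on simulated data. Reads carry no molecular identifiers here and are not independent molecules, so the floor of 3 reads covers counting error only.

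The members and gene lists were chosen with earlier results of these data known. Named genes are the 10 members and, from each list, mainly the up to 4 with the smallest adjusted p; genes given as levels, and Sept5, were added for context. Mpig6b and Ahsp were not matched by symbol. Some genes counted in the lists are not reported by name here. Positions, exon lengths (the union of exons per gene) and overlaps come from GENCODE M21 on GRCm38, and promoters from RefSeq. Alternatives were pseudocounts of 0.5 and 10, no minimum mean or one of 50, TMM and upper-quartile scaling, edgeR, DESeq2, the replicate number as a block, weights per library, and each library left out in turn. edgeR with no minimum mean was added after the data were seen.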

Additional observations from a re-analysis of the deposited data

How the results depend on the processing

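The number of members called higher was 5, and between 4 and 6 in all alternatives but a minimum mean of 50, which left Gp1bb and Selp untested and gave 3; leaving out 1 library gave 4 to 5. The number called lower was 1, and 0 to 1 with 1 library left out. Over all genes, 1349 were higher and 1238 lower. Weights per library gave 3432 and 3266, and leaving out 1 library gave 819 to 3159 higher and 746 to 2999 lower, the highest counts being those without WT replicate 3; the cause was not tested. None of the 7 tested members changed direction in any alternative that tested it. The replicate number as a block gave 4 members higher and 1 lower, with 1179 genes higher and 1062 lower over all genes. Deviations of same-numbered libraries correlated at 0.00174, 0.192 and 0.238, and E531R replicate 1 did not correlate best with WT replicate 1, so the numbers were not taken as pairs. Upper-quartile scaling called 1153 genes higher and 1304 lower, and TMM scaling 1370 and 1143. Of the other listed genes, 43 of 57 called higher and 8 of 10 called lower kept their call in all alternatives that tested them. Of the 58 that did not pass, 20 kept that result in all alternatives and 19 changed direction in at least 1. Rab27a, Cd47, Fli1 and Nfe2 passed with weights per library and without WT replicate 3. With 10 to 60 reads per group, the fold changes of Selp, Gp9 and the WT level of Gp1bb are limited by depth.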
